A study of Mus musculus with 16 samples.

Results

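Immunoglobulin variable (V) segment genes were described across 16 RNA-seq libraries of the epididymal fat pad of mice, a visceral white adipose depot. The table held 54532 genes, of which 348 carried a symbol beginning with Ighv (heavy chain), Igkv (kappa light chain) or Iglv (lambda light chain). A V segment was taken as a member if its FPKM (fragments scaled by gene length and by the mapped fragments of the library) was above 0 in at least 4 of the 16 libraries, which left 205 segments: 101 heavy, 101 kappa and 3 lambda. Because the levels themselves chose the members, the number in use and the summed level are given as descriptions with no test.

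Each group held 4 libraries, and all were from male C57BL/6 mice kept for 20 weeks on a high-fat diet. The vehicle and tubastatin groups (tubastatin A, given as its HCl salt, an inhibitor of the deacetylase HDAC6) were labelled as 25 weeks old and as HDAC6 global knockout. The design line of the series names no knockout for mice given drug or vehicle and puts them at about 28 weeks, so the genotype and age behind that comparison are uncertain. The AdKO group (adipose tissue-specific Hdac6 knockout) and the AdCre group (adiponectin-Cre controls) were labelled as 28 weeks old and vehicle-treated. The adiponectin promoter drives Cre in fat cells and not in B cells. Whether every library came from its own animal is not stated in the labels, and p-values therefore reflect library-to-library spread. The vehicle and tubastatin libraries are called the drug cohort below, and the AdKO and AdCre libraries the knockout cohort; cohort, labelled age and labelled genotype cannot be told apart.

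A developing B cell joins 1 heavy chain V segment to D and J segments and 1 light chain V segment to a J segment, so the mix of V segments in bulk RNA reports which receptors the B cells and plasma cells of the tissue carry, weighted by the RNA each cell makes. Plasma cells make far more immunoglobulin RNA than resting B cells. In mice, B-1 cells, which are common in the peritoneal cavity and its fat, are known for a few recurrent receptors: Ighv11-2 with Igkv14-126 and Ighv12-3 with Igkv4-91, both of which bind phosphatidylcholine, and Ighv7-1 with Igkv7-33, which binds phosphorylcholine. In bulk tissue, fewer cells of a type and less RNA per cell cannot be told apart.

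The sequences below are the last 150 bases of the exons of 4 segments that led a library or its heavy chain and of the closest relative of each, printed 5′ to 3′ on the coding strand from the GENCODE M21 transcripts (GRCm38), with capitals at the positions where the members of a pair differ. They are shown because the counts of a segment depend on how many positions separate it from its relative, and they are reference sequences, not the rearranged sequences of these animals. Igkv3-2 lies at chr6:70698449-70699067 (plus strand) and its relative Igkv3-1 at chr6:70703578-70704177, and they differ at 9 of the 150 positions.
Igkv3-2: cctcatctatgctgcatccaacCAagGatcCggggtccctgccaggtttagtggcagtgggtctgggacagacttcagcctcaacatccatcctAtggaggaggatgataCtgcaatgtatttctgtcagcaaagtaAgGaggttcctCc
Igkv3-1: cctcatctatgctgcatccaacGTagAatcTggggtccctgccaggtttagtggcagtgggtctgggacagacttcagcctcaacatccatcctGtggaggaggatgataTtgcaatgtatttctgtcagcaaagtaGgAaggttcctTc
Igkv14-126, at chr6:67896172-67896642 (plus strand), and Igkv14-111, at chr6:68256389-68256869, differ at 20 positions.
Igkv14-126: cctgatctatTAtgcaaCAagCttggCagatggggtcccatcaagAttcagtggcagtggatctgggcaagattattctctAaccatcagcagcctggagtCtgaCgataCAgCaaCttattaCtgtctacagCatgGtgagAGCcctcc
Igkv14-111: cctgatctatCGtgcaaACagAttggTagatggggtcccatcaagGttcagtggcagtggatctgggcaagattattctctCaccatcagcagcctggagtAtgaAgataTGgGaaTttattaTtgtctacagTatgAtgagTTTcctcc
Ighv11-2, at chr12:114048241-114048812 (minus strand), and Ighv11-1, at chr12:113981879-113982341, differ at 2 positions.
Ighv11-2: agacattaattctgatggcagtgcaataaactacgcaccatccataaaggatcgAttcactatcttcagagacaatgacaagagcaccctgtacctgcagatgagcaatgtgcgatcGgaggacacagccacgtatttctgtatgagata
Ighv11-1: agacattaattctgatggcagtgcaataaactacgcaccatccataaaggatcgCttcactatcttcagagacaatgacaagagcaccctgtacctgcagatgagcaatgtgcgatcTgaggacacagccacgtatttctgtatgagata
Iglv1, at chr16:19085017-19085500 (minus strand), and Iglv2, at chr16:19260401-19260859, differ at 5 positions.
Iglv1: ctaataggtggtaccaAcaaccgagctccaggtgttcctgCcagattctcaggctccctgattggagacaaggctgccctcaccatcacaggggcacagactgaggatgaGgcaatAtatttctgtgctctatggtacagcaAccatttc
Iglv2: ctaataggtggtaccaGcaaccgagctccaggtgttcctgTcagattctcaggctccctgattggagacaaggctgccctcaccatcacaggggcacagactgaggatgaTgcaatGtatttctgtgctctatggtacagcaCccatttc

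The relatives were mostly, but not always, lower in level than the leading segments. Igkv14-111 was above Igkv14-126 in vehicle replicate 1 (368 against 165 FPKM) and AdCre replicate 1 (17.5 against 7.22 FPKM). Iglv2 was above Iglv1 in AdKO replicate 2 and AdCre replicate 2. Igkv3-1 was between 0 and 126 FPKM where Igkv3-2 was between 2.47 and 3410 FPKM. Ighv11-1, which is no member, was above 0 only in tubastatin replicates 3 and 4, at 0.121 and 0.426 FPKM, while Ighv11-2 was above 0 in all 16 libraries. Over the last 280 bases, the median identity of a member to its closest relative was 95.4%, and the median longest run of identical bases was 67. Of the 205 members, 16 were at least 98% identical to another V segment, among them Ighv11-2 (98.6% to Ighv11-1). Others were Igkv3-5 and Igkv3-10 (98.2%), Igkv6-20 and Igkv6-29 (98.2%) and Ighv1-72 and Ighv1-62-3 (99.3%). Ighv1-62-2 and Ighv1-71 were identical over those bases. The levels of these segments are uncertain, because the rule for reads that match several relatives is not given in the sources used here.

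Of the 143 V segment genes that were not members, 103 were at 0 in every library and 40 were above 0 in 1 to 3 libraries. Annotation set the members apart from them: 194 of 205 members were annotated as functional V genes and 11 as pseudogenes, while 119 of the 143 others were pseudogenes. The 11 pseudogene members were low, with a highest mean of 0.504 FPKM. The 9 members just inside the threshold, above 0 in exactly 4 libraries, had mean levels of 0.0552 to 0.278 FPKM, and the 9 segments just outside it, above 0 in 3 libraries, had means of 0.0236 to 1.15 FPKM. The highest of the latter was Igkv1-132, which reached 15.9 FPKM in a single library. In all, 67 of the 205 members were above 0 in every library.

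Levels were spread over several orders of magnitude. The median of the members' mean FPKM over 16 libraries was 6.20 for heavy, 10.4 for kappa and 18.2 for lambda segments. Of the 205 members, 6 averaged at least 100 FPKM: Igkv3-2 at 757, Igkv14-126 at 258, Ighv1-53 at 206, Iglv1 at 148, Igkv3-5 at 142 and Ighv1-26 at 121 FPKM. A further 83 averaged 10 to 100 FPKM, 78 averaged 1 to 10 FPKM and 38 averaged less than 1 FPKM.

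Library depth was between 18234387 and 24776803 reads, as recovered from the FPKM steps. The V members drew between 1799 reads (AdCre replicate 1) and 106968 reads (vehicle replicate 3), and 1 read was worth 0.112 to 0.153 FPKM for a segment of the median exon length of 359 bases. A segment at 0 may therefore have reached 0.337 to 0.458 FPKM, the worth of the 3 reads that a count of 0 allows. The 95% Wilson interval of the read share of the leading segment was between 0.527 and 2.87 percentage points wide, and such intervals cover counting error only. Hdac6 itself was at 1.41 to 1.78 FPKM in the drug cohort, which carries the global knockout label. It was at 2.66 to 4.11 FPKM in AdKO and at 3.64 to 4.74 FPKM in AdCre. The drug cohort was thus above 0 but below every knockout-cohort library, and a gene-level value cannot settle the genotype. AdKO differed from AdCre in Hdac6 by −0.23 ± 0.11 on the log2 scale (SE, n = 4 per group, limma-trend adjusted p = 0.503).

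Libraries that stood apart are named first because several results rest on them. AdKO replicates 3 and 4 were dominated by the Ighv11-2 and Igkv14-126 pair and held most of the V level of their group. AdCre replicate 3 used V segments in proportions closer to the drug cohort than to its own group. AdCre replicate 2 and AdKO replicates 1 and 2 did so too, by smaller margins. On the 7-gene epididymal epithelium list AdCre replicate 3 summed to 34.4 FPKM. Epcam was at 22.8 FPKM there, against 0.119 to 1.07 FPKM in the other 15 libraries. Adam7 and Cdh1 were at 5.57 and 5.43 FPKM there, against 1.91 and 0.254 FPKM in AdCre replicate 2. Gpx5, Lcn5, Lcn8 and Defb20 went the other way, at 0.0803, 0, 0 and 0.455 against 5.97, 0.158, 1.71 and 1.35 FPKM. AdCre replicate 2 summed to 12.3 FPKM on that list, and every other library stayed at or under 1.93 FPKM.

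The summed FPKM of the 205 members was 8054, 5363, 13167 and 7214 in vehicle replicates 1 to 4. In the tubastatin replicates it was 7747, 6734, 3828 and 4206. It was 1224, 281, 4964 and 3859 in AdKO and 239, 1823, 1837 and 334 in AdCre. The group means were 8449 ± 3340 for vehicle, 5629 ± 1913 for tubastatin, 2582 ± 2194 for AdKO and 1058 ± 892 for AdCre (SD, n = 4 each). The tubastatin range overlapped the vehicle range, and the AdKO range overlapped the AdCre range. V segments made up 0.0730 to 3.74% of all FPKM in a library.

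The log2 ratio of the group means was −0.59 for tubastatin against vehicle and stayed between −0.78 and −0.29 when each library was left out in turn. For AdKO against AdCre it was 1.29 and ranged from 0.76 to 1.69, but without AdKO replicates 3 and 4 together it was −0.49. Without AdCre replicate 3 it was 1.69. AdKO replicates 3 and 4 were the 2 highest libraries of their group and were left out for that, so a fall was fixed in advance. AdCre kept its own 2 highest libraries (1823 and 1837 FPKM), so the value of −0.49 does not compare like with like.

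The number of members in use, meaning above 0 FPKM, was 187, 179, 191 and 191 in vehicle, 195, 191, 181 and 185 with tubastatin, 152, 98, 160 and 180 in AdKO, and 105, 159, 153 and 113 in AdCre. The 2 drug-cohort groups overlapped almost wholly, with means of 187 ± 5.66 and 188 ± 6.22 (SD, n = 4). AdKO averaged 148 ± 35.0 and AdCre 133 ± 27.4, and these ranges overlapped too. The number in use tended to rise with the number of V reads, though not in strict order. AdKO replicate 3 had 160 in use from 38773 reads, and AdKO replicate 4 had 180 from 29548 reads. The number in use was therefore also computed as the number expected at 1500 V reads in every library. At that fixed number it was 117 to 142 in vehicle, 126 to 134 with tubastatin, 91.1 to 126 in the AdKO and 102 to 116 in the AdCre libraries. The library with the fewest segments at equal reads was AdKO replicate 2.

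Evenness differed more between libraries of a group than between groups. The top 5 segments held 45.5, 34.3, 45.7 and 34.1% of the summed V FPKM in vehicle, and 29.0, 38.4, 37.1 and 35.9% with tubastatin. They held 25.4, 38.4, 50.1 and 44.2% in AdKO and 35.6, 32.5, 46.4 and 42.4% in AdCre. The group means were 39.9 ± 6.61, 35.1 ± 4.18, 39.5 ± 10.5 and 39.2 ± 6.33% (SD, n = 4), and all 4 ranges overlapped. Across the 16 libraries, 31 different members appeared at least once among the top 5.

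The effective number of segments (inverse Simpson index, the number of equally used segments that would give the same concentration) was 16.1, 24.7, 12 and 20.9 in vehicle and 27.9, 13.8, 24.5 and 20.4 with tubastatin. It was 42.4, 22.6, 10.4 and 13.7 in AdKO and 26.1, 29.6, 9.44 and 20.1 in AdCre. AdKO replicate 1 was the most even library and AdCre replicate 3 the least even. Group means were 18.4 ± 5.57, 21.6 ± 6.07, 22.3 ± 14.4 and 21.3 ± 8.81 (SD, n = 4), and the 4 ranges overlapped.

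**Figure D1:**
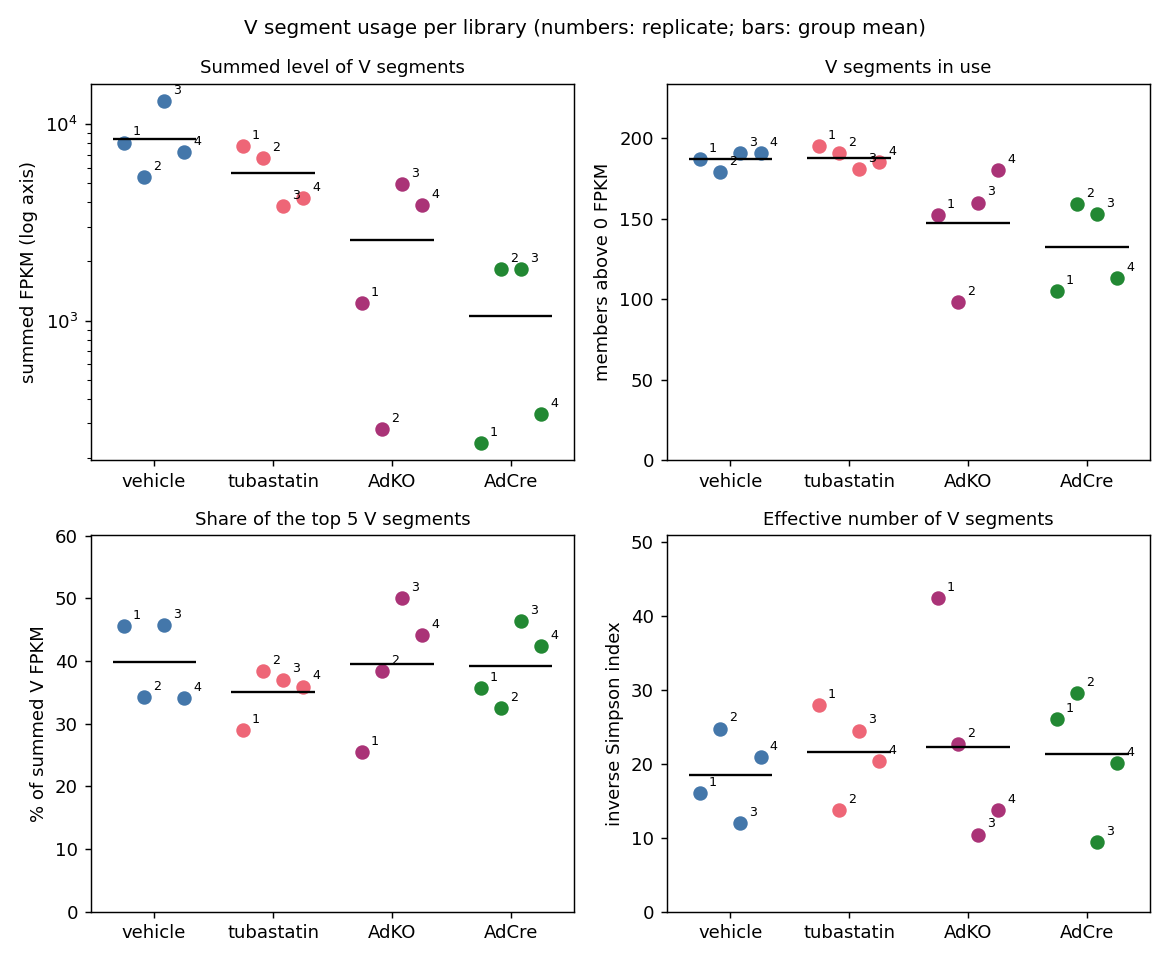
Summed FPKM (log axis), number of members in use, share of the top 5 segments and effective number of segments, with 1 point per library, replicate numbers beside the points and bars at the group means. The drug-cohort libraries sit at 179 to 195 segments in use and the knockout-cohort libraries at 98 to 180, while the top 5 share and the effective number overlap in all 4 groups.

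**Figure D2:**
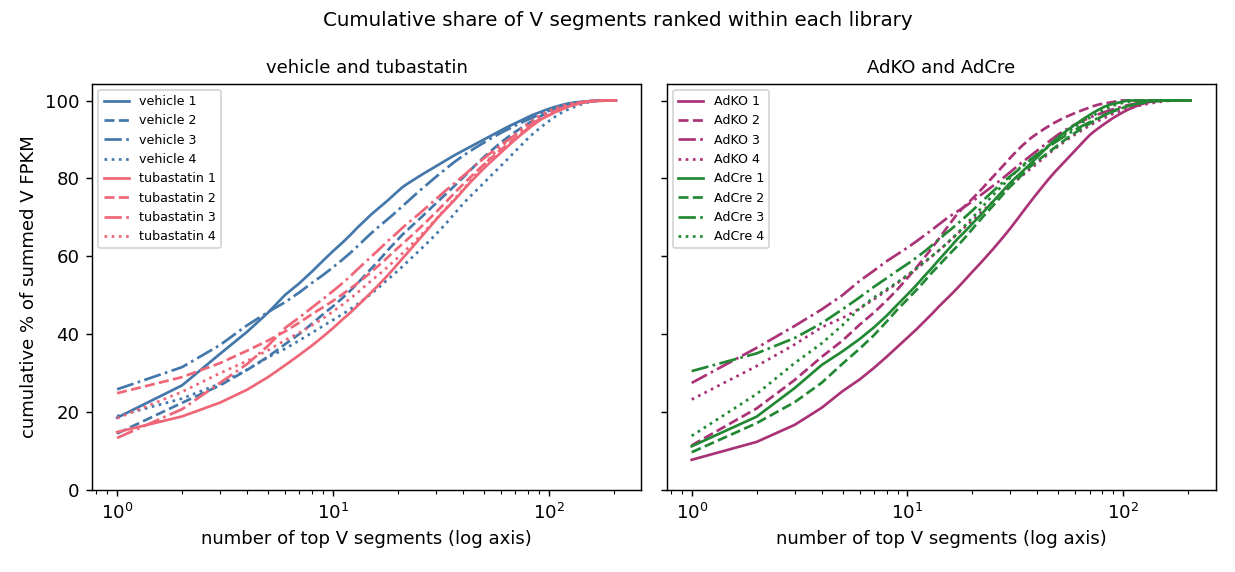
Cumulative share of summed V FPKM against the number of top-ranked segments (log axis), with 1 line per library and both cohorts in separate panels. AdKO replicate 1 rises most slowly, with 39.2% in its top 10 segments, and AdKO replicate 3 reaches 62.2% there.

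The leading kappa segment of the drug cohort was Igkv3-2. Its level was 1499, 780, 3410 and 1372 FPKM in vehicle and 1156, 1677, 514 and 776 FPKM with tubastatin. In AdKO it was 56.2, 32.4, 69.3 and 27.3 FPKM, and in AdCre 4.38, 178, 561 and 2.47 FPKM. It was the highest V segment in all 8 libraries of the drug cohort, in AdKO replicate 2 and in AdCre replicates 2 and 3, or 11 of 16 libraries.

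As a share of the V level, Igkv3-2 held 18.6, 14.6, 25.9 and 19.0% in vehicle and 14.9, 24.9, 13.4 and 18.5% with tubastatin. In AdKO it held 4.59, 11.5, 1.40 and 0.706%, and in AdCre 1.84, 9.74, 30.6 and 0.739%. Every drug-cohort library was above every AdKO library, whereas AdCre spanned from 0.739 to 30.6%, with AdCre replicate 3 above all other libraries. The whole Igkv3 family (10 members) held 20.0 to 33.9% in vehicle, 22.5 to 31.3% with tubastatin, 1.70 to 12.9% in the AdKO and 2.20 to 34.1% in the AdCre libraries. Among its other members, Igkv3-5 was at 86.8 to 748 FPKM in vehicle, 116 to 282 FPKM with tubastatin, 2.05 to 12.5 FPKM in AdKO and 0.144 to 7.86 FPKM in AdCre. Igkv3-10 was at 113 to 277 FPKM in the drug cohort and at 50.1 FPKM in AdCre replicate 3, against 0.265 to 12.5 FPKM in the other libraries of the knockout cohort.

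In AdKO replicates 3 and 4 the leading segments were instead those of the phosphatidylcholine-binding pair. Igkv14-126 was at 1367 and 899 FPKM in these libraries, and Ighv11-2 was at 446 and 331 FPKM. In AdKO replicates 1 and 2, Igkv14-126 was at 36.6 and 16.6 FPKM and Ighv11-2 at 6.82 and 8.08 FPKM. The same group thus held the highest levels of the pair in the series and levels inside the AdCre range.

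In AdCre, Igkv14-126 was at 7.22, 70.0, 19.2 and 26.5 FPKM and Ighv11-2 at 1.27, 26.7, 4.28 and 9.40 FPKM. In vehicle, Igkv14-126 was at 165, 423, 665 and 76.2 FPKM and Ighv11-2 at 50.3, 106, 205 and 21.1 FPKM. In tubastatin, Igkv14-126 was at 186, 90.7, 31.1 and 54.0 FPKM and Ighv11-2 at 18.0, 18.8, 8.82 and 20.1 FPKM. The pair together made up 36.5 and 31.9% of the V level in AdKO replicates 3 and 4 and between 1.04 and 10.8% in the other 14 libraries. Ighv11-2 alone was 28.2 and 25.2% of the heavy V level, and Igkv14-126 42.4 and 39.6% of the kappa V level, in those 2 libraries. Of the V reads of AdKO replicate 3, 26.3% came from Igkv14-126 (95% Wilson interval 25.9 to 26.7%).

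**Figure D3:**
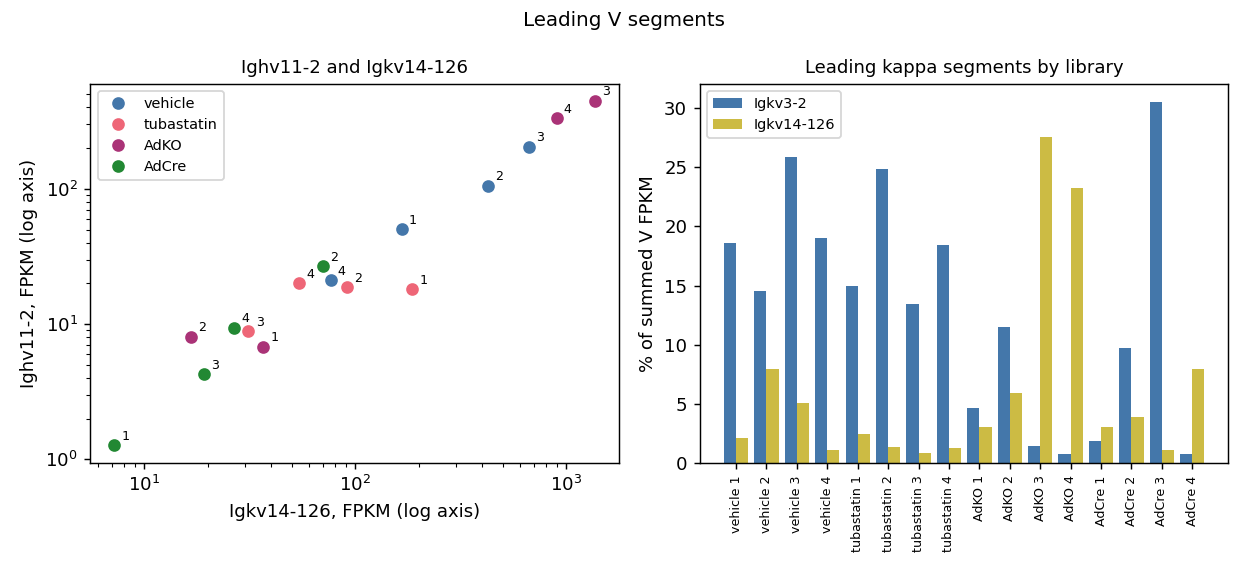
Left, FPKM of Ighv11-2 against Igkv14-126 on log axes, 1 point per library with its replicate number. Right, bars from 0 for the share of summed V FPKM held by Igkv3-2 and by Igkv14-126 in each library; Igkv3-2 is the taller bar in all 8 drug-cohort libraries and Igkv14-126 in AdKO replicates 3 and 4, where it holds 27.5 and 23.3%.

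The segments of the other recurrent B-1 receptors had lower top levels over the 16 libraries, though not lower levels in every library. Ighv12-3, the heavy segment of the second phosphatidylcholine-binding receptor, was at 10.5 to 23.2 FPKM in vehicle and 5.03 to 6.92 FPKM with tubastatin. It was at 80.2 FPKM in AdKO replicate 3 and 20.3 FPKM in AdKO replicate 4, and at 0 to 2.63 FPKM in the other 6 knockout-cohort libraries. Its kappa partner Igkv4-91 was at 130, 172, 335 and 31.5 FPKM in vehicle and 137, 84.2, 15.7 and 74.4 FPKM with tubastatin. Igkv4-91 was at 209 FPKM in AdKO replicate 3 and 86.6 FPKM in AdKO replicate 4, against 0.270 to 18.3 FPKM in those 6 libraries, so vehicle replicate 3 was above all knockout-cohort libraries. AdKO replicates 3 and 4 were thus the high libraries of the knockout cohort for both pairs. The second pair held a larger share of the V level than the first in tubastatin replicate 4, at 1.91 against 1.76%.

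Ighv7-1, the heavy segment of the phosphorylcholine-binding receptor, was at 44.0 FPKM with tubastatin replicate 4, 40.8 FPKM in AdKO replicate 4 and 18.8 FPKM in AdKO replicate 3, and at most 12 FPKM elsewhere. Its partner Igkv7-33 was no member: it was above 0 in 3 vehicle libraries, at no more than 0.550 FPKM. The 4 listed B-1 cell genes (Bhlhe41, Zbtb32, Cd5 and Spn, which other cells also express) summed to 13.1 and 17.4 FPKM in AdKO replicates 3 and 4. These were the 2 highest sums of the knockout cohort, where the other 6 libraries were at 8.19 to 13.0 FPKM. They lay inside the drug-cohort range of 12.9 to 26.7 FPKM. The single genes were mixed. Within the knockout cohort, Zbtb32 was highest in AdKO replicate 3 (1.85 FPKM), and Cd5 and Spn in AdKO replicate 4 (3.11 and 7.59 FPKM). Bhlhe41 was highest in AdCre replicate 1 (5.80 FPKM). In AdKO replicate 3, Cd5 and Spn were at 1.16 and 5.47 FPKM, below AdKO replicate 1 (1.75 and 6.00 FPKM).

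Lambda light chains held 2.11 to 8.73% of the V level in 15 libraries and 16% in AdCre replicate 4. There Iglv1, the most used mouse lambda segment, was the top V segment at 46.6 FPKM and 13.9% of the V level (14.4% of V reads, 95% Wilson interval 13.0 to 15.9%). The constant gene Iglc3 was at 22.8 FPKM in that library against 7.37 FPKM for Iglc1, while Iglc1 was above Iglc3 in each of the other 15 libraries. Iglv1 was highest in vehicle replicate 1, at 668 FPKM, and lowest in AdKO replicate 2, at 2.72 FPKM. Iglv2 exceeded Iglv1 in AdKO replicate 2 (3.43 against 2.72 FPKM) and AdCre replicate 2 (25.5 against 19.0 FPKM), and Iglv3 stayed between 0 and 21.2 FPKM.

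Heavy chain segments held 26.6 to 37.6% of the V level. Ighv1-53, of the large Ighv1 family, was the leading heavy segment in 7 of the 8 drug-cohort libraries. It was at 240 to 749 FPKM in vehicle, 242 to 312 FPKM with tubastatin, 4.33 to 52.2 FPKM in AdKO and 1.53 to 63.3 FPKM in AdCre. In tubastatin replicate 2 the leading heavy segment was Ighv1-26, at 278 FPKM. In the knockout cohort 6 different segments led the heavy chain: Ighv1-26 in AdKO replicate 1 and AdCre replicate 3, Ighv6-3 in AdKO replicate 2, Ighv11-2 in AdKO replicates 3 and 4, Ighv1-80 in AdCre replicate 1, Ighv1-76 in AdCre replicate 2 and Ighv5-17 in AdCre replicate 4. Ighv1-80 held 33.2% of the heavy V level of AdCre replicate 1, and Ighv5-17 held 28.6% of that of AdCre replicate 4. These 2 libraries had 1799 and 2302 V reads. The Ighv1 family as a whole (51 members) held 21.0 to 22.6% of the V level in vehicle, 20.7 to 28.0% with tubastatin, 9.89 to 21.1% in the AdKO and 13.7 to 22.5% in the AdCre libraries.

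**Figure D4:**
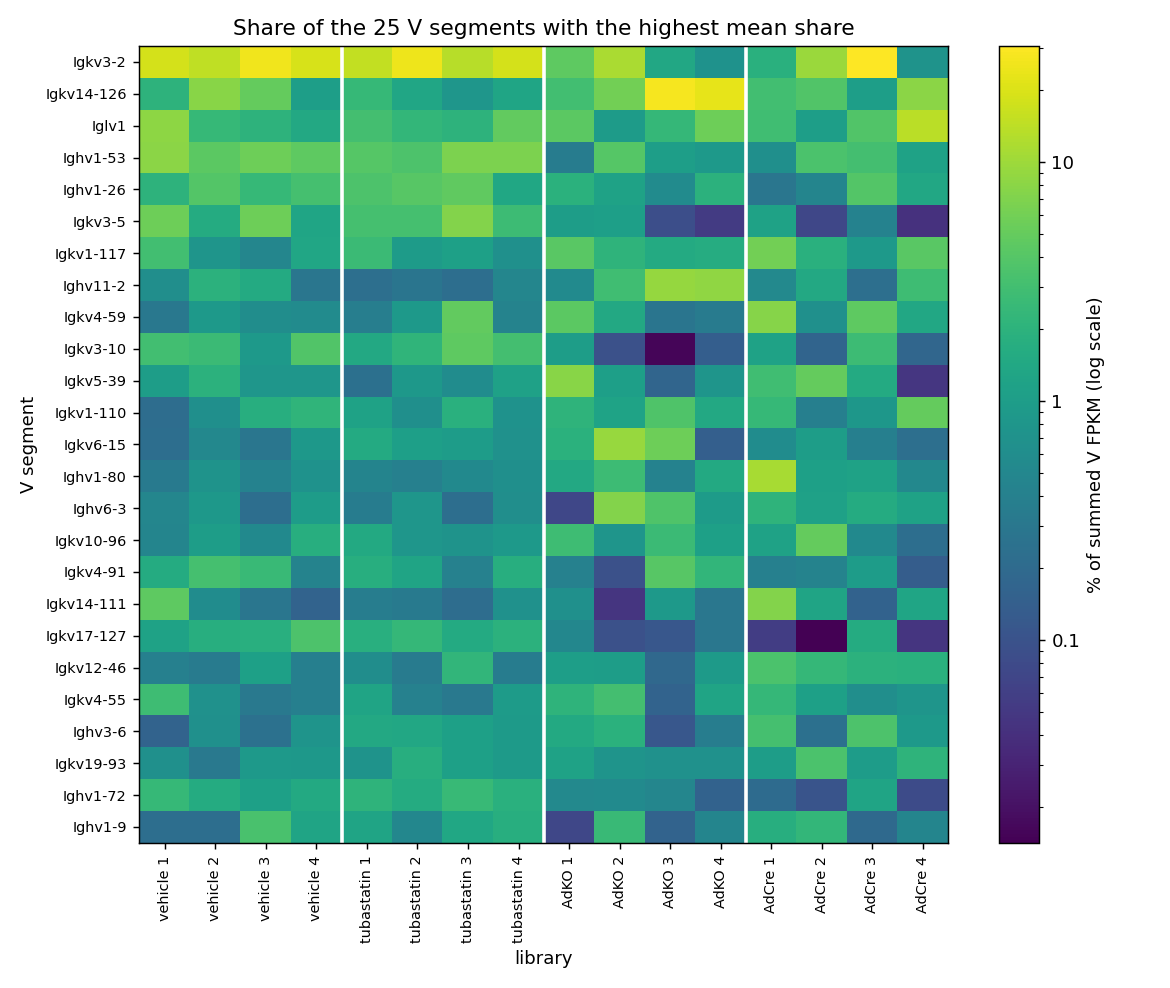
Share of summed V FPKM (log colour scale) of the 25 segments with the highest mean share, in 16 libraries separated by group. Igkv3-2 is bright in all 8 drug-cohort columns and in AdCre replicate 3, and Igkv14-126 and Ighv11-2 in AdKO replicates 3 and 4.

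Of the 205 members, 3 held at least 2% of the V level in 1 library and under 0.5% in at least 14 of the others. Ighv9-4 was at 395 FPKM (4.90%) in vehicle replicate 1, with a highest share of 0.208% elsewhere. The same library had the highest Ighg1, the IgG1 constant gene, at 175 FPKM against 0 to 51.3 FPKM in the others. Ighv1-58 held 2.41% in AdKO replicate 4 and Ighv1-78 held 2.18% in AdCre replicate 3. Such segments were chosen by their values, and whether each comes from a single clone was not tested.

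Usage was also summed by position along the locus, in blocks that hold the segments already described. The kappa members were divided into 4 blocks by distance from the J segments, and the block nearest to J, which runs from Igkv3-1 to Igkv6-29 and includes Igkv3-2, held 46.6 to 59.3% of the kappa V level in vehicle and 52.4 to 58.5% with tubastatin. It held 7.30 to 46.8% in AdKO and 10.1 to 56.3% in AdCre. The block farthest from J, which includes Igkv14-126, held 17.6 to 24.7% in vehicle, 14 to 22.4% with tubastatin, 29.5 to 66.2% in the AdKO and 17.4 to 47.9% in the AdCre libraries. Among the heavy members, the third block from J, from Ighv1-11 to Ighv1-55, held 42.1 to 45.0% of the heavy V level in vehicle and 41.3 to 49.4% with tubastatin, against 14.2 to 32.5% in AdKO and 9.84 to 39.1% in AdCre. In the other 5 blocks, as in both kappa blocks above, the AdCre range overlapped that of the drug cohort; the kappa block from Igkv4-62 to Igkv10-95, for example, held 10.5 to 14.8% in vehicle and 7.79 to 23.8% in AdCre.

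Usage was compared between pairs of libraries as the sum, over the 205 segments, of the smaller of their 2 shares. Within the drug cohort this shared usage was 56.7 to 66.9% between vehicle libraries, 63.7 to 71.7% between tubastatin libraries and 60.0 to 74.1% between the groups. By median, pairs across these groups (65.8%) lay between pairs within vehicle (63.9%) and pairs within tubastatin (68.3%). Shared usage was 37.5 to 66.7% between AdKO libraries, with the top value for replicates 3 and 4, and 34.1 to 43.7% between AdCre libraries. AdCre replicates 1 and 4 and AdKO replicate 2 had the fewest V reads (1799, 2302 and 2137), and the part of depth in these values was not tested.

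AdCre replicate 3 shared 55.6 to 69.4% of its usage with the 8 drug-cohort libraries, most with tubastatin replicate 2, and 34.1 to 41.5% with the other AdCre libraries. AdCre replicate 2, with a similar number of V reads (14427 against 15166), shared 42.0 to 49.2% with the drug cohort. It shared 39.3 to 43.7% with the other AdCre libraries. The medians of AdKO replicates 1 and 2 were also slightly higher with the drug cohort (47.1 and 45.2%) than with their own group (45.7 and 43.9%). By this measure AdCre replicate 3 stood with the drug cohort. Other measures of that library ran with its label: Hdac6 was at 4.74 FPKM against 1.41 to 1.78 FPKM in the drug cohort, Lep (leptin) was at 1035 against 265 to 797 FPKM, and summed V FPKM was 1837 against 3828 to 13167.

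**Figure D5:**
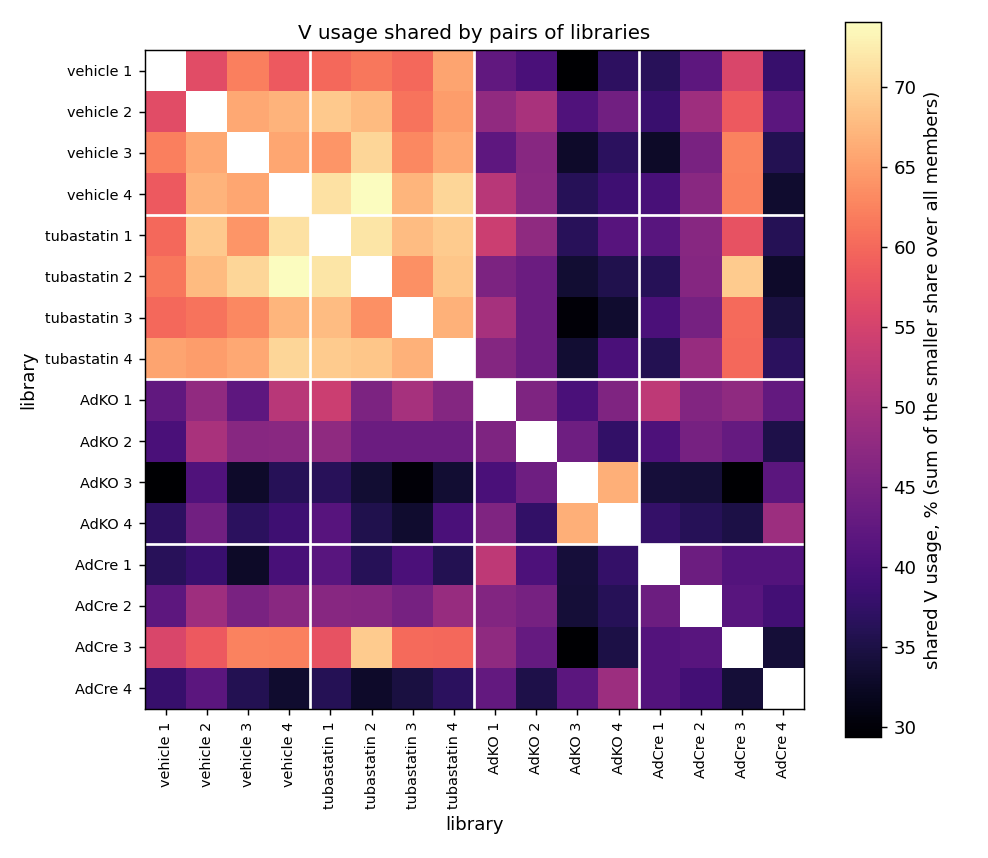
Shared V usage (%, colour scale) for each pair of the 16 libraries, with white lines between groups and an empty diagonal. The 8 drug-cohort libraries form a block at 56.7 to 74.1%, the row of AdCre replicate 3 is bright against that block, and AdKO replicates 3 and 4 share 66.7%.

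The V levels were set beside the constant genes, which come from the same transcripts. The ratio of kappa V FPKM to Igkc FPKM was 0.724 to 1.38, and Igkc was at 137 FPKM in AdKO replicate 2 and 12363 FPKM in vehicle replicate 3. Ighm, the constant gene of IgM, made up 77.7 to 96.7% of the heavy constant level, and Igha, that of IgA, was 9.83% in AdKO replicate 4 and 6.85% in AdCre replicate 4. Summed V FPKM per FPKM of Cd79a, a signalling subunit of the B cell receptor, was 126 to 378 in 15 libraries and 856 in AdKO replicate 3. Jchain, which links the subunits of secreted IgM and IgA, was 5.79 to 11.8 times Cd79a in those 15 libraries and 22.1 times in AdKO replicate 3.

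The summed levels of cell type markers are set beside the V level. The 11 B cell genes summed to 76.0 to 185 FPKM in vehicle, 40.0 to 121 FPKM with tubastatin, 9.15 to 47.2 FPKM in AdKO and 9.94 to 27.3 FPKM in AdCre. The 10 T cell genes summed to 47.4 to 113, 25.4 to 70.2, 22.8 to 64.5 and 13.9 to 32.4 FPKM in the same order. Within the knockout cohort the order of libraries was not that of the V level: AdKO replicate 3, highest in summed V FPKM, had 22.7 FPKM of B cell genes, below AdKO replicate 1 (33.5), AdKO replicate 4 (47.2) and AdCre replicate 3 (27.3 FPKM). Its T cell sum of 31.6 FPKM was also below that of AdKO replicate 1, at 41.6 FPKM. The 10 plasma cell genes, several of which other cells also express, summed to 341 to 866, 292 to 483, 135 to 322 and 134 to 202 FPKM. The 9 adipocyte genes, at 2900 to 6788 FPKM in all libraries, bear out the tissue label. Of the lymph node stroma genes Ccl21a was at 0 in every library, and Cxcl13 was at 40.0 FPKM in AdKO replicate 4 against 2.65 to 13.9 FPKM in the others. Cd209b was instead highest in AdKO replicates 2 and 3, at 6.24 and 5.72 FPKM, against 2.46 FPKM in AdKO replicate 4. Ccl19 and Madcam1 reached no more than 0.158 and 0.410 FPKM. Rag1 and Rag2, which cut V segments in developing B cells, were at 0 in every library. The part that lymphoid cells or neighbouring tissue play in the V levels was not tested.

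Tubastatin against vehicle was tested with limma-trend on log2(FPKM + 1) over 13271 genes, of which 167 were members; the other 38 members were under a mean of 1 FPKM and were not tested. Of all genes 0 passed an adjusted p of 0.05 (0.0%), and 0 of 167 members did so, with 0 also by voom on the recovered reads. At an unadjusted p under 0.05 there were 1597 genes (12% of those tested) and 12 members (7.19%). Of the members 11 were lower and 1 higher, against 6.1% and 5.94% of all genes. By voom 13 members reached that level (7.78 against 12.3% of all genes). The groups did not overlap for 7.15% of all genes (3.62% lower and 3.53% higher) and for 8 members (4.79%), 7 of them lower and 1 higher. The median log2 fold change was −0.31 over the tested members and −0.01 over all genes, with 61 members positive and 106 negative. Positive fold changes made up 36.5% of members and 45.4% of all genes. These shares were not tested, because segments measured in the same libraries are not independent observations. The share of members at p under 0.05 was below that of all genes with 8 libraries. In the lower direction it was close to that of all genes (6.59 against 6.1%, and 4.19 against 3.62% without overlap). The share over both directions was above that of all genes without tubastatin replicate 2 (18 members, 10.8 against 7.75%). It was close to that of all genes without vehicle replicate 1 (22 members, 13.2 against 12.6%) or tubastatin replicate 3 (15 members, 8.98 against 8.51%).

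The member with the smallest p was Ighv12-3, whose values were 23.2, 21.5, 10.5 and 11.5 FPKM in vehicle and 5.03, 6.92, 5.09 and 5.82 FPKM with tubastatin. The groups did not overlap, and the log2 fold change was −1.32 ± 0.25 (SE, n = 4 per group; limma-trend adjusted p = 0.205). Ighv9-3, a segment of a small heavy family, was at 23.3 to 32.7 FPKM in vehicle and 12.8 to 20.4 FPKM with tubastatin, again without overlap (log2 fold change −0.81 ± 0.16, adjusted p = 0.238). Igkv10-94 was at 43.8 to 244 FPKM in vehicle and 13.6 to 41.4 FPKM with tubastatin (−2.38 ± 0.52, adjusted p = 0.266). None of these differences passed the threshold.

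The B-1 pair was also lower in mean. For Ighv11-2 the tubastatin libraries were all below the vehicle libraries (log2 fold change −2.08 ± 0.63, adjusted p = 0.337), with the closest libraries at 20.1 and 21.1 FPKM. For Igkv14-126 the groups overlapped (−1.73 ± 0.75, adjusted p = 0.416). Igkv8-19 was at 12.3 to 148 FPKM in vehicle and 0.677 to 8.18 FPKM with tubastatin (−2.50 ± 0.84, adjusted p = 0.354), with vehicle replicate 3 far above the others. Igkv5-39 was lower in mean with overlap (−1.34 ± 0.38, adjusted p = 0.312). Igkv14-130 and Ighv1-84 did not overlap between groups but were low, with highest values of 17.5 and 13.3 FPKM. The only member without overlap that was higher with tubastatin was Ighv1-22, at 3.14 to 9.97 FPKM in vehicle and 12.6 to 54.3 FPKM with tubastatin (1.38 ± 0.49, adjusted p = 0.378). For Igkv3-2 the log2 fold change was −0.71 ± 0.49 (adjusted p = 0.569), with overlap.

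AdKO against AdCre gave the same number of calls. Of all genes 0 passed an adjusted p of 0.05 by limma-trend (0.0%) or by voom, and 0 of 167 members did so. At an unadjusted p under 0.05 there were 1452 genes (10.9%) and 12 members (7.19%), and voom gave 10 members (5.99 against 10.5%). Leaving out AdKO replicate 2 raised this to 44 members (26.3% against 14.2% of all genes), all higher in AdKO, with a smallest adjusted p of 0.0600. Without AdCre replicate 3 there were 18 members (10.8 against 7.99%), and without AdCre replicate 1 or 4 there were 7 (4.19 against 9.82 and 6.83%). With 8 libraries all 12 were higher in AdKO, a direction held by 4.78% of all genes against 6.16% in the other. The groups did not overlap for 6.48% of all genes (2.78% higher and 3.7% lower) and for 4 members (2.40%), all higher in AdKO. The median log2 fold change was 0.62 over the tested members and 0.00 over all genes, with 133 members positive and 32 negative. Positive fold changes made up 79.6% of members and 50.9% of all genes. Segments measured in the same libraries are not independent observations, so these shares were not tested. Without AdKO replicates 3 and 4, left out after their high values were seen, the median of the members was −0.08, with 70 positive and 93 negative. AdCre was kept whole in that fit, so this turn in direction compares unlike sets of libraries.

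The 4 members without overlap were of modest level. Ighv7-3 was at 19.9, 2.81, 46.5 and 22.0 FPKM in AdKO and 0.540, 0.257, 1.86 and 0.911 FPKM in AdCre, with a log2 fold change of 3.25 ± 0.70 (SE, n = 4 per group; limma-trend adjusted p = 0.240). Igkv12-98 was at 2.27 to 4.43 FPKM in AdKO and 0 to 0.948 FPKM in AdCre (1.55 ± 0.27, adjusted p = 0.203). Igkv4-68 was at 5.46 to 63.1 against 0 to 3.30 FPKM (2.92 ± 0.77, adjusted p = 0.300), and Igkv8-19 at 1.13 to 11.7 against 0 to 0.969 FPKM (1.83 ± 0.51, adjusted p = 0.322). Ighv2-9 overlapped (2.05 ± 0.60, adjusted p = 0.334).

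Fold changes of the leading segments had wide errors in this cohort. Ighv11-2 differed by 2.89 ± 1.51 on the log2 scale (adjusted p = 0.520) and Igkv14-126 by 2.83 ± 1.47 (adjusted p = 0.517), with overlap for both. Igkv3-2 differed by 0.25 ± 1.58 (adjusted p = 0.957), and its sign turned to −0.67 without AdCre replicate 1 and to −0.88 without AdCre replicate 4. Without AdCre replicate 3 it was 1.56.

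The difference between the drug effect and the knockout effect was tested over all 16 libraries. Of all genes 0 (0.0%) and of 167 members 0 passed an adjusted p of 0.05 by limma-trend, and voom also gave 0. At an unadjusted p under 0.05 there were 1198 genes (9.03%) and 16 members (9.58%), and 7 members by voom (4.19 against 8.7%). All 16 were negative, a direction held at that p by 4.57% of all genes, against 4.46% in the other direction. The member count was 35 without AdKO replicate 2 (21% against 10.9% of all genes). It was 27 without vehicle replicate 1 (16.2 against 7.54%) and 26 without AdCre replicate 3 (15.6 against 7.89%). Without AdKO replicates 3 and 4 it was 9 (5.39 against 9.06%). The median difference over the tested members then went from −0.94 to −0.15 on the log2 scale. The smallest p among members was that of Igkv8-19, with a difference of −4.33 ± 1.05 on the log2 scale (adjusted p = 0.212), followed by Ighv7-3 at −3.56 ± 0.93 (adjusted p = 0.239). Igkv4-68, Igkv17-121 and Ighv1-81 differed by −3.19, −3.08 and −3.08 with adjusted p of 0.369, 0.372 and 0.411.

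The 12 tested constant genes (of 13 with Jchain, Ighe being too low) gave 0 calls in each comparison. Their median log2 fold change was −0.63 for tubastatin against vehicle, with 12 of 12 negative, and 0.87 for AdKO against AdCre, with 11 of 12 positive. Igkc differed by −0.50 ± 0.44 and 0.95 ± 1.10 in those comparisons (SE, n = 4 per group; limma-trend adjusted p = 0.646 and 0.745). Of the 10 tested B cell genes, 0 passed in either comparison, with medians of −0.61 and 0.26.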

How the data were processed

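The authors deposited 1 table of FPKM values for 16 libraries of total RNA extracted with Trizol, treated with DNase and cleaned on RNeasy columns, per the labels' protocols. The aligner and counter, the genome build and the library kit were not given in the sources used here. Each of the 16 columns carried the title of a sample. Members and gene lists were chosen with earlier results of these data known, and no test rests on that choice. Segments were named by level, by leading a library, by smallest p, by absence of overlap between groups, or as B-1 or lambda segments. Symbols came from reference gene names, and lengths, sequences and coordinates from GENCODE M21 (GRCm38), which matched all 348 V genes.

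With those lengths, the deposited FPKM values gave whole reads within 0.01 read for 100.0% of 2689 V values above 0 and for 96.3 to 96.5% of values in the whole table. Genes with a mean of at least 1 FPKM (13271) entered limma-trend in R 4.3.3 (limma 3.58.1) as log2(FPKM + 1). Fold changes on this scale understate those of low genes. P-values were adjusted by Benjamini-Hochberg over all of these genes at 0.05. The fit was checked on simulated data in which all genes had the same dispersion. That check does not cover V segments that vary far more between libraries. The fit of a comparison held the 8 libraries of its cohort, and that of the difference of effects held all 16. Alternatives changed the pseudocount, filter, scaling, spread, block, replicates or members, and used voom on recovered reads of 12622 genes. Leaving out AdKO replicates 3 and 4 was added after their values were seen.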

Additional observations from a re-analysis of the deposited data

Results flagged for a closer look

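In a group of 4 libraries a value was singled out if its gap to the nearest other library exceeded a set share of the group's range. That share was Dixon's 95% limit for 4 values, which normally distributed values pass in about 1 in 20 groups. The check was made 152 times, 136 times for the levels of 34 named segments and 16 times for 4 measures of the whole library, and 21 segment levels passed. FPKM was not transformed, and many segments had been named by their values in these libraries. The number that passed therefore cannot be set against that rate. In AdCre replicate 3, Ighv1-26 was at 72.4, Igkv3-10 at 50.1, Igkv17-127 at 29.3 and Igkv4-59 at 83.7 FPKM, each far above the other AdCre libraries. In AdCre replicate 2 this held for Igkv1-117 at 33.8, Iglv2 at 25.5, Ighv1-76 at 98, Ighv12-3 at 2.63, Ighv9-3 at 57.6 and Ighv1-81 at 13.4 FPKM. In AdCre replicate 1, Ighv2-9 was at 1.62 FPKM. With tubastatin, Ighv1-22 at 54.3 and Ighv1-81 at 25.2 FPKM stood apart in replicate 1, Ighv5-17 at 65.3 FPKM in replicate 2 and Ighv7-1 at 44.0 FPKM in replicate 4. Among the vehicle libraries, Ighv5-17 at 95.7 and Igkv12-98 at 20.6 FPKM stood apart in replicate 1 and Igkv8-19 at 148 FPKM in replicate 3, while Iglv3 was low in replicate 2, at 8.16 FPKM. In AdKO, Igkv14-130 was at 2.04 FPKM in replicate 3, the others being at 0 to 0.278 FPKM, and Ighv1-84 at 0.978 FPKM in replicate 4, the other 3 libraries being at 0. AdCre thus held 11 of the 21 values.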

How the results depend on the processing

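The count of V members that passed was 0 in every fit run, including voom and each library left out. Over all genes, the tests without a filter on low values called 3 genes for tubastatin against vehicle, 2 for AdKO against AdCre and 1 for the difference of effects. A filter at a mean of 0.2 FPKM called 1 for AdKO against AdCre, and TPM scaling called 1 for tubastatin against vehicle. A spread shared by all 16 libraries called 8 and 43 genes in those comparisons. With each library left out in turn the calls ranged from 0 to 2, 0 to 1 and 0 to 5 for tubastatin, AdKO and the difference; the cause was not tested.

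With the replicate number as a block, 0 genes and 0 members were called in all comparisons. Members at an unadjusted p under 0.05 numbered 17, 20 and 17 for tubastatin, AdKO and the difference. Their shares were 10.2, 12 and 10.2%, against 11.3, 11.8 and 10.3% of all genes. Same-numbered libraries deviated with correlations of −0.104 to 0.018 in the drug cohort and −0.232 to 0.330 in the knockout cohort. For libraries of different numbers these were −0.193 to 0.197 and −0.446 to 0.300. Pairing by number was thus not evident, but such correlations cannot exclude it.

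Without AdKO replicates 3 and 4, and with all AdCre libraries kept, the log2 ratio of summed V FPKM, AdKO against AdCre, was −0.49. Counting a segment as in use from 0.5 FPKM made the tubastatin mean 8.25 lower than vehicle (−8.25 segments, against 1 higher above 0 FPKM). Leaving out each library gave −0.88 to 1.56 for the log2 fold change of Igkv3-2, AdKO against AdCre, with −0.67 and −0.88 without AdCre replicates 1 and 4. Libraries with 1799 to 2302 V reads limit what can be said of rare segments.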
